A study of Mus musculus with 48 samples.

Results

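The effect of AC170222 on total RNA of the mediobasal hypothalamus (MBH) was read from 6 of the 48 libraries of the series, chosen by their labels: the 3 MBH input libraries of mice given AC170222 and the 3 of mice given saline. The series title concerns how GLP-1 and CCK (cholecystokinin) agonists combine to suppress feeding. RNA was sequenced from MBH and from the dorsal vagal complex (DVC) of the hindbrain, as total RNA of the homogenate ("input") and as RNA of ribosomes carrying phosphorylated ribosomal protein S6 ("IP"). All mice were male C57/Bl6 animals aged 9 weeks, kept on standard chow, fasted for 6 h and injected intraperitoneally with 10 µL per g of body weight. The saline group received vehicle only. A group given AC3174, a GLP-1 agonist listed at 1 µg/kg, and one given a combination of the drugs, whose doses are not stated, had 3 MBH input libraries each and shared the fit. The AC170222 group, the CCK agonist of the pair, has a dose of 2.5 µg/kg under that name in the protocol. The treatment label spells the compound AC710222, a name the protocol also lists at 2.5 or 10 µg/kg, so the dose of these libraries is not certain. When tissue was taken after the injection, and how many mice a library stands for, is not stated in the labels. Nothing states that replicates came from separate animals, and p-values therefore measure the spread between these samples, which may be technical.

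CCK is a peptide of the gut and brain. It acts on a pair of receptors that couple mainly to Gq, phospholipase C and calcium, and in part to cyclic AMP: CCK1 (gene Cckar), which carries the satiety signal of the gut through vagal nerve endings, and CCK2 (gene Cckbr), the main form in forebrain. The MBH holds the arcuate nucleus, where neurons making AgRP and NPY promote feeding and neurons making POMC and CART restrain it. Immediate early genes such as Fos are transcribed soon after neurons fire and serve as a marker of recent activity.

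Total counts were 56148585 to 77189727 per library, and counts were expressed as CPM (counts per 1e6 reads of the library) on TMM-scaled library sizes. Saline 2 stood apart from the other 5 libraries. A count was found in it for 12853 genes, against 15992 to 16786 in the others, and 8.45% of 9242 genes common in MBH were at 0, against 0.0757% to 0.573%. Its log2 values correlated with those of saline 1 and saline 3 at 0.70 and 0.67 across the common genes, against 0.84 to 0.89 for the other within-group pairs. Results that rest on it are given with and without it. The defining MBH markers Agrp, Npy, Pomc, Cartpt, Ghrh, Rax and Nkx2-1 had counts in all 6 libraries. Nr5a1, a marker of the ventromedial nucleus, was at 58.3, 0.132 and 88.9 CPM with saline and 71.4, 69.6 and 50.6 CPM with AC170222, so it was nearly missing from saline 2 only.

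No gene passed the test. Of 16622 genes tested with edgeR's quasi-likelihood test over the 12 MBH input libraries, 0 (0%) were called at an adjusted p under 0.05, and the lowest adjusted p of edgeR was 0.502. An unadjusted p under 0.05 was reached by 1092 genes (6.57%), 611 (3.68%) with a positive and 481 (2.89%) with a negative difference, AC170222 minus saline. DESeq2 called 573 of the 16622 genes on the same counts and limma-voom called 2. Of the DESeq2 calls, 486 had at least 1 library at 0 and 508 had a mean under 10 CPM. Among all 16622 genes, 9356 had a mean of 10 CPM or more. All AC170222 libraries lay on the same side of all saline libraries for 179 of the 573 genes, against 9.02% of all genes. The 2 limma-voom calls were Mgmt, a DNA repair methyltransferase at 0 in all saline libraries and 2.28 to 6.17 CPM with AC170222, and the long noncoding RNA Gm5532, at 7.30 to 11.8 CPM with AC170222 and at most 0.0189 CPM with saline. The spread between libraries was wide: the common biological coefficient of variation was 1.12, that is, of the size of the mean itself. The fitted log2 differences (AC170222 minus saline) of all genes had a median of 0.04, with 8651 above 0 and 7861 below.

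**Figure D1:**
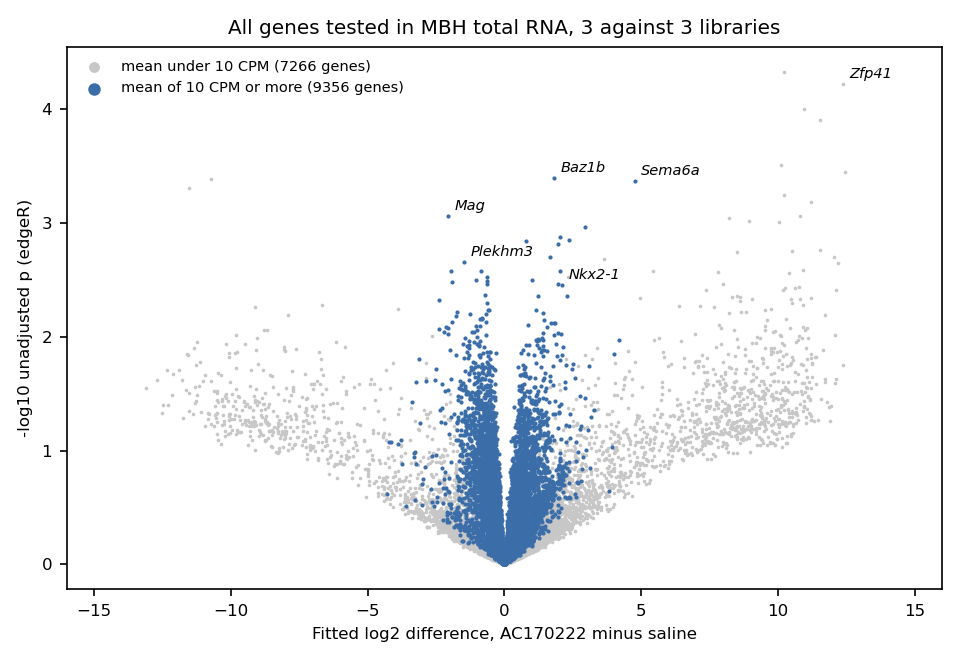
Fitted log2 difference (x axis) and −log10 of the unadjusted edgeR p (y axis) for each of the 16622 genes tested. Blue points have a mean of 10 CPM or more over the 6 libraries and grey points less. The widest log2 differences belong to grey points, which had libraries at 0, and 0 genes reached an adjusted p under 0.05.

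The groups of 3 libraries did not overlap for 1500 genes (9.02%): 877 (5.28%) had all AC170222 libraries above all saline libraries and 623 (3.75%) had all below. Without saline 2 these counts, a comparison added after the data were seen, were 1340 and 1539, so the order of the directions turned. With fewer saline libraries groups separate more easily, so the size of these counts cannot be compared with those of all 6 libraries. Among the 9356 genes averaging 10 CPM or more, the groups did not overlap for 460 (4.92%) in the higher and 441 (4.71%) in the lower direction. From these the 12 genes of each direction with the smallest p were taken for description. None was called (edgeR adjusted p 0.709 for each of the 24), and values after ± are SE for log2 differences. Values of single libraries are given in the order 1, 2 and 3. Genomic positions are those of GENCODE M21 on GRCm38.

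The 12 genes with higher levels under AC170222 were led by Baz1b (chr5:135187264-135246129), a subunit of chromatin-remodelling complexes. It stood at 35.9, 18.5 and 34 CPM with saline and 64.2, 110.1 and 139.5 CPM with AC170222, with no overlap, a log2 difference of 1.83 ± 0.36 and an unadjusted p of 0.000409. Sema6a, a transmembrane semaphorin of axon guidance, was at 0.301, 1.68 and 0.454 CPM with saline and 10.3, 29.2 and 27.2 CPM with AC170222. All saline libraries lay under 2 CPM and all AC170222 libraries above 10 CPM for Sema6a, and the log2 difference was 4.77 ± 0.96. Pan3, a subunit of a deadenylase that shortens mRNA tails, was at 2.52, 3.1 and 3.35 CPM with saline and 11.9, 30.2 and 27.1 CPM with AC170222, and Neurl1a, a ubiquitin ligase of synapses, was at 18.2, 20.8 and 8.28 CPM with saline and 68.8, 71.5 and 55.2 CPM with AC170222. Their log2 differences were 2.95 ± 0.67 and 2.05 ± 0.48. Lysmd2 (chr9:75625741-75637771) had the smallest SE of the 12, with 78.6, 79.1 and 99.5 CPM with saline and 119, 166 and 156 CPM with AC170222 and a log2 difference of 0.78 ± 0.18. The remaining members were Apmap, Zfyve9 (an anchor of SMAD proteins in the TGF-β pathway), Uri1, the RNA-binding gene Rbm26, the bromodomain gene Brwd1, Ubqln1 and Nkx2-1, with log2 differences from 1.00 to 2.35.

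One AC170222 library set part of this picture. Nkx2-1 (chr12:56531958-56536908), the transcription factor that specifies the ventral hypothalamus, was at 5.56, 6.25 and 6.22 CPM with saline and 11.4, 15 and 51.9 CPM with AC170222. Ubqln1 (chr13:58176156-58215653), which carries ubiquitinated proteins to the proteasome, was at 60.7, 52.8 and 107 CPM with saline and 125, 193 and 549 CPM with AC170222. Of the 6 libraries, AC170222 3 was highest by far for both genes. Without it the log2 differences were 1.14 for Nkx2-1 and 1.12 for Ubqln1, in place of 2.12 and 1.97. Under AC3174 and the combination, Nkx2-1 ranged from 34.1 to 51.2 and from 34.1 to 61.3 CPM. Ubqln1 ranged from 295 to 555 CPM with AC3174 and from 335 to 658 CPM with the combination.

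The 12 genes with lower levels were led by Mag (chr7:30899176-30914873), the myelin-associated glycoprotein of oligodendrocytes. It stood at 35.4, 53.5 and 36.8 CPM with saline and 9.31, 8.26 and 12.7 CPM with AC170222, with a log2 difference of -2.06 ± 0.45 and an unadjusted p of 0.000871. All AC170222 libraries were under 13 CPM and all saline libraries above 35 CPM for Mag. Plekhm3 (chr1:64785983-64956824) was at 65.4, 58.7 and 65.2 CPM with saline and 16.8, 22.4 and 29.1 CPM with AC170222, and Kansl1 (chr11:104333229-104468861), a scaffold of a histone acetyltransferase complex, was at 106, 101 and 75.4 CPM with saline and 51.1, 53.2 and 50.4 CPM with AC170222. The AC170222 libraries of Kansl1 were within 3 CPM of each other. Tubb4a, a neuronal and oligodendroglial β-tubulin and the most abundant of the 24 genes, was at 1875, 3013 and 1859.6 CPM with saline and 1413, 1555 and 1395 CPM with AC170222, with a log2 difference of -0.63 ± 0.18. Saline 2 was the highest library for Tubb4a, as it was for Zfp212 (20.5, 107 and 26.6 CPM with saline and 11.4, 8.54 and 9.63 CPM with AC170222). Without saline 2 the log2 difference was -0.36 ± 0.11 for Tubb4a and -1.26 ± 0.49 for Zfp212, in place of -2.38 for the latter. The other members were Elmod3, the phosphatase 2A regulatory subunit Ppp2r5d, the actin-binding gene Twf2, the mitochondrial aspartate aminotransferase Got2, Tuba8, Pnkd and the tRNA-CCA-adding enzyme Trnt1, with log2 differences from -1.95 to -0.63.

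By the numbering of the library codes, replicates 1 and 2 of both groups form one set and replicate 3 of both another. The labels do not say what the sets stand for. Within the first and the second set, the difference of mean log2(CPM + 2) was 1.63 and 1.97 for Baz1b and -2.08 and -1.40 for Mag. Without saline 2 the log2 differences were 0.72 to 5.87 for the 12 higher genes and -1.84 to -0.36 for the 12 lower genes. As these genes were chosen for groups that did not overlap, the sign of these values and of those by set was fixed in advance. The libraries carry no strand information, and exons of 6 of the 12 higher genes (Baz1b, Neurl1a, Apmap, Zfyve9, Rbm26 and Brwd1) and of 5 of the 12 lower genes (Kansl1, Ppp2r5d, Got2, Tuba8 and Trnt1) overlap another gene, so their counts can include its reads. The same holds for genes below, among them Nwd2, Islr2, Slc16a9, Glp2r, Jund, Six6, Pcsk2, Gapdh, Miat and Snhg11. The labels do not say how reads that match several tubulin genes were counted.

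**Figure D2:**
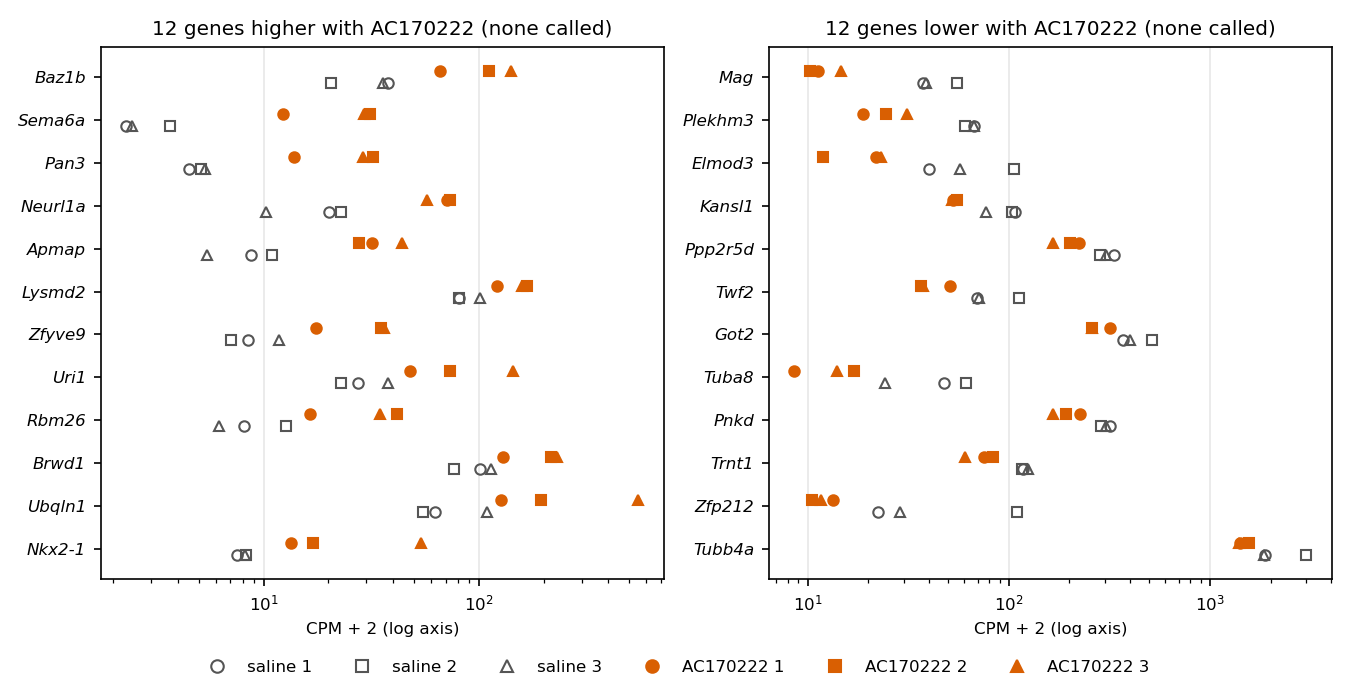
CPM plus 2 on a log axis in each of the 6 libraries for the 12 genes with the smallest p in each direction among those with groups that did not overlap; open grey symbols are saline, filled orange symbols AC170222, and the shape gives the replicate number. The gap between groups is widest for Sema6a, and AC170222 3 stands alone for Nkx2-1 and Ubqln1.

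The AC3174 and combination groups were compared with the same 3 saline libraries, so what the saline libraries share enters all 3 comparisons. For Baz1b the AC3174 libraries held 64.8, 82.3 and 95 CPM and the combination libraries 61.5, 78.5 and 96.5 CPM. Sema6a was at 41.2, 21.4 and 19.8 CPM with AC3174 and 7.8, 9.67 and 32.1 CPM with the combination. For both genes every library of the 3 drug groups lay above every saline library. Mag differed in this respect, with 36.1, 23.9 and 28.4 CPM under AC3174 and 24.6, 35 and 66.8 CPM under the combination, levels that span those of saline. Kansl1 was at 71.7, 82.3 and 99.7 CPM with AC3174 and 60, 73.5 and 72.9 CPM with the combination. Fitted log2 differences from saline for Mag were -2.06 with AC170222, -0.51 with AC3174 and 0.01 with the combination. Over the 12 higher genes they were 0.86 to 5.08 with AC3174 and 0.86 to 4.35 with the combination. Over the 12 lower genes they were -1.81 to -0.15 and -1.55 to 0.01, with Mag alone above 0, in the combination. No gene was called in either of the other comparisons by edgeR: 0 (0%) of 16622 genes, with 1427 (8.59%) and 1424 (8.57%) at an unadjusted p under 0.05 for AC3174 and the combination.

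Some genes had counts in only 1 of the AC170222 and saline groups. Of the 36345 genes matched to the annotation, 57 were at 0 counts in all saline libraries with at least 10 counts in each AC170222 library. The reverse held for 6 genes. Leaving out saline 2 brought these counts to 78 and 85, without the excess of the first direction. With a library fewer the rule is easier to meet, so both counts can only rise. Of the 57 genes, 14 had counts in all AC3174 libraries and 31 in all combination libraries. For the 6 genes these figures were 2 and 4. Most of these genes were weakly expressed: the median of the 57 genes was 2.83 CPM in the AC170222 libraries, and 3 of them reached 10 CPM. The 3 most abundant were Nwd2 (2.55, 14.4 and 17.3 CPM with AC170222), Gpr34, a lysophosphatidylserine receptor gene of microglia (1.14, 14.6 and 16.7 CPM), and Zfp41 (16.8, 13.9 and 1.51 CPM). Against a floor of 3 counts over the saline group these levels were at least 765-, 726- and 720-fold higher. At 0 in all AC170222 libraries were Vwa3b (2.66, 14.5 and 0.987 CPM with saline), Islr2 (3.04, 6.82 and 0.413 CPM), Gm4787 and Slc16a9, at least 381-, 216-, 149- and 113-fold lower against the same floor. For each of these genes the libraries of the group with counts differed among themselves by several-fold, and none was called by edgeR (adjusted p 0.502 for Zfp41 and 0.709 for the others). Floors cover counting error only, since amplified copies of a molecule were counted as separate reads.

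The genes of the CCK system were at low levels, and both receptors had libraries at 0. Cckar (chr5:53697776-53707705), the CCK1 receptor, was at 0, 1.3 and 0 CPM with saline and 9.23, 4.77 and 9.54 CPM with AC170222. The groups did not overlap, and the log2 difference was 4.17 ± 2.11 with an unadjusted p of 0.0741. Without saline 2, the one saline library with Cckar reads, the unadjusted p was 0.000161 and the edgeR adjusted p 0.435. That fit sets AC170222 against saline libraries all at 0, so its smaller p follows from the library left out. The gene was not called in either fit. Under AC3174 and the combination Cckar stood at 7.36, 0.651 and 5.68 CPM and 4.14, 7.26 and 5.09 CPM. Cckbr (chr7:105425731-105470898), the CCK2 receptor, was at 6.39, 8.92 and 0 CPM with saline and 0, 16.8 and 11.8 CPM with AC170222, with 1 library of each group at 0. The ligand gene Cck (chr9:121489824-121495694) was at 4.35, 10.1 and 4.32 CPM with saline and 3.33, 7.66 and 8.18 CPM with AC170222, a log2 difference of 0.03 ± 0.96. Glp1r, the GLP-1 receptor, was at 5.82, 0 and 4.54 CPM with saline and 1.5, 1.92 and 0 CPM with AC170222, again with 1 library at 0 in each group. Glp2r, Gipr and Gast reached at most 1.16 CPM. Cckbr, Cck and Glp1r overlapped between the groups. With SEs of 0.96 to 2.73 on the log2 scale, a difference of several-fold was not detectable.

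Calcr (chr6:3685680-3764714), the calcitonin receptor, a component of the amylin receptor, had the smallest p among 29 tested appetite and hormone receptors. It was at 0, 0 and 0.08 CPM with saline and 13.2, 8.67 and 9.85 CPM with AC170222. All saline libraries were at or near 0, and the log2 difference of 8.49 ± 2.37 had an unadjusted p of 0.00443 (edgeR adjusted p 0.709). In the other drug groups Calcr varied from 0.326 to 26.5 CPM under AC3174 and from 1.62 to 15.1 CPM under the combination. Of the other receptors, Mc4r, the melanocortin receptor of satiety, was at 5.54, 0 and 0 CPM with saline and 0, 1.09 and 6.29 CPM with AC170222, Lepr, the leptin receptor, at 0.301, 0.302 and 1.44 CPM with saline and 0.569, 0.151 and 0.154 CPM with AC170222, and Npy1r at 4.09, 10.4 and 1.69 CPM with saline and 19.6, 0.0604 and 24.9 CPM with AC170222. These 3 genes overlapped between groups. Of the list, 18 log2 differences were above 0 and 11 below, with a median of 0.41, against 14 and 15 and -0.01 without saline 2.

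The arcuate feeding neuropeptides were measured well and most did not separate the groups. Agrp was at 7.82, 13.4 and 7.27 CPM with saline and 7.76, 6.33 and 20.2 CPM with AC170222, Npy at 52.4, 86.4 and 51.4 CPM with saline and 53.3, 66.8 and 74.4 CPM with AC170222, Pomc at 61.3, 78.5 and 87.7 CPM with saline and 47.2, 91.7 and 98.6 CPM with AC170222 and Cartpt at 97, 70.6 and 58.3 CPM with saline and 53.9, 63 and 63.5 CPM with AC170222. The log2 differences of these 4 genes were 0.27 ± 0.71, 0.03 ± 0.33, 0.06 ± 0.31 and -0.32 ± 0.29. All 4 overlapped between groups, and Agrp shares exon sequence with neighbouring genes in the annotation. Sst (chr16:23889573-23890958), which encodes somatostatin, the peptide that inhibits growth hormone release, had the smallest p of the 15 tested peptides. It was at 102, 99.9 and 87.3 CPM with saline and 62, 65 and 58.8 CPM with AC170222. The AC170222 libraries were all below the saline libraries and close together, the means were 96.3 ± 7.85 and 61.9 ± 3.07 CPM (SD, n = 3 each), and the log2 difference was -0.64 ± 0.23. It was not called: the unadjusted p was 0.0166 and the edgeR adjusted p 0.709. Without saline 2 the log2 difference of Sst was -0.61 ± 0.22, and within the first and second set of library codes the difference of log2(CPM + 2) was -0.65 and -0.55. As the Sst groups did not overlap, the sign of these values was fixed in advance. Sst stood at 67.6, 76.9 and 49.8 CPM with AC3174 and 60.7, 50.1 and 60.6 CPM with the combination. Pnoc, the nociceptin precursor, was the other peptide gene without overlap, at 15.6, 15.5 and 12.4 CPM with saline and 8.61, 8.57 and 7.38 CPM with AC170222. Both are lower, 2 of 15 against 3.75% of all genes. Over the list, 4 log2 differences were above 0 and 11 below, with a median of -0.31 (-0.32 without saline 2), and 0 of 15 were called.

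**Figure D3:**
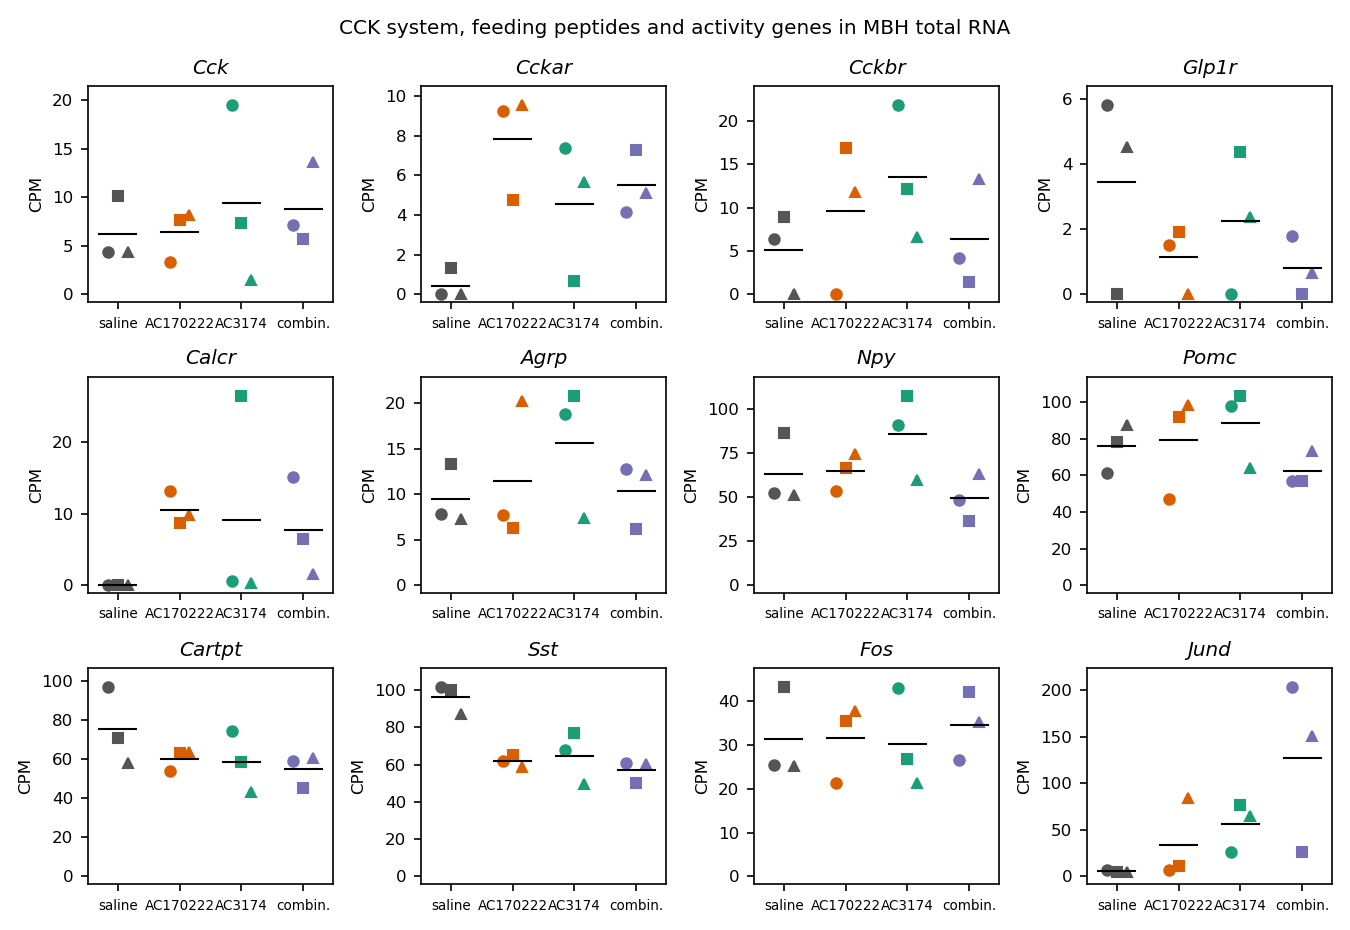
CPM of the CCK system, Calcr, arcuate peptides and activity genes in the 12 MBH input libraries, with 1 point per library, the shape giving the replicate number and the black line the group mean of 3. Sst libraries of AC170222 (58.8 to 65.0 CPM) lie under those of saline (87.3 to 101.7 CPM), while Cck, Npy, Pomc and Fos overlap.

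Fos (chr12:85473890-85477273) did not separate the groups. It was at 25.4, 43.2 and 25.1 CPM with saline and 21.3, 35.4 and 37.8 CPM with AC170222, with a log2 difference of 0.01 ± 0.42. Of 37 immediate early genes tested, 0 were called, 23 log2 differences were above 0 and 14 below, and the median was 0.18 (0.25 without saline 2). Egr1 was at 73.1, 22.5 and 151 CPM with saline and 103, 101 and 129 CPM with AC170222, Junb at 26.7, 47.7 and 49.5 CPM with saline and 40.8, 64 and 35.5 CPM with AC170222, Nr4a1 at 13.5, 26 and 13.4 CPM with saline and 19.5, 13.4 and 31.2 CPM with AC170222 and Arc, a synaptic plasticity gene, at 7.42, 26.2 and 23.1 CPM with saline and 12.6, 19.4 and 23.3 CPM with AC170222. These 4 genes overlapped as well. The smallest p values of the list belonged to Egr3 and Jund. Egr3 had 0.986, 0 and 0.48 CPM with saline and 0 in all AC170222 libraries, levels too low to read. Jund, an AP-1 subunit, was at 7.16, 4.86 and 4.78 CPM with saline and 6.31, 11.3 and 84.3 CPM with AC170222. Its log2 difference of 2.60 ± 0.98 rested on AC170222 3 and was 0.65 without it. Jund ranged from 26.6 to 76.5 CPM with AC3174 and from 25.8 to 204 CPM with the combination. Btg2 was the one immediate early gene with all AC170222 libraries higher, at 21.1, 2.76 and 17.7 CPM with saline and 33.7, 39.8 and 27.2 CPM with AC170222, and Nr4a3 the one with all lower, at 7.6, 10.6 and 3.59 CPM with saline and 1.45, 3.11 and 2.08 CPM with AC170222. These are 1 gene of 37 in each direction, against the 5.28% and 3.75% of all genes given above.

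Sst and Fos are textbook targets of CREB, the factor that cyclic AMP and calcium activate, and their sites are shown because the first is the peptide gene with the smallest p and the second the activity marker whose groups overlapped. In the RefSeq promoters (GRCm38.p6), the 250 bases before the start of Sst hold 1 full palindromic site, TGACGTCA, and those of Fos hold none but 2 copies of its shorter core, TGACG. Each run has 30 bases, 5′ to 3′ on the strand of the gene, with the site in capitals. The Sst site is at chr16:23890874-23890903 on the minus strand and begins 48 bases before the RefSeq start, which lies 114 bases inside the start that GENCODE gives. The Fos sites are at chr12:85473749-85473778 and chr12:85473812-85473841 on the plus strand and begin 129 and 66 bases before the start.
Sst full site: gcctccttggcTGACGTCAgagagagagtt
Fos core site, distal: ggggcgtagagtTGACGacagagcgcccgc
Fos core site, proximal: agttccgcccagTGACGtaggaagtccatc
With both strands searched, TGACGTCA was in 1.55% of 32851 promoters of this length and the core TGACG, which the full site contains, in 17.8%. Of 29 matched immediate early genes, 3 held the full site (Btg2, Dusp1 and Maff) and 19 the core. A match describes these letters and not binding.

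Genes of the pathway downstream of CCK receptors were counted as a list of G proteins, phospholipases, kinases and calcium-handling genes. Of 34 tested, 0 were called, 25 log2 differences were above 0 and 9 below, and the median was 0.42, against 0.04 for all genes. Without saline 2 the counts were 19 and 16 of 35 and the median was 0.09. Within the first and second set of library codes the median difference of log2(CPM + 2) was 0.50 and 0.04. Against the same saline libraries, the median of this list was 0.35 with AC3174, the GLP-1 agonist, and 0.44 with the combination. Groups of 4 of the 34 did not overlap, all with higher AC170222 libraries, against 5.28% of all genes. They were Prkce (91.7, 41.2 and 75.4 CPM with saline and 99.2, 94.8 and 106 CPM with AC170222), Adcy3, Adcy5 (21.3, 14.8 and 16.8 CPM with saline and 27.2, 22.7 and 39.5 CPM with AC170222) and Ppp3ca, the catalytic subunit of calcineurin (314, 248 and 334 CPM with saline and 344, 428 and 560.3 CPM with AC170222). Gnaq, the α subunit of Gq, was at 179, 313 and 129 CPM with saline and 187, 126 and 130.3 CPM with AC170222, and Plcb1, a phospholipase it activates, at 80.6, 0.51 and 98.3 CPM with saline and 76.3, 66.2 and 50.8 CPM with AC170222, both overlapping.

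Large sets of abundant genes showed small log2 differences in one direction, with medians closer to 0 without saline 2. The share of counts taken by the 100 most abundant genes of a library was 18.0% ± 1.70 with saline and 16.4% ± 0.376 with AC170222 (SD, n = 3 each), lower in every AC170222 library than in any saline library, and its part in these values was not tested. Of 80 tested nuclear-encoded respiratory chain genes, 75 had log2 differences below 0, with a median of -0.42. Without saline 2, 72 of 80 were below 0 and the median was -0.17. For 78 cytosolic ribosomal protein genes the figures were 73 below 0 and -0.30, and 64 of 79 and -0.09 without saline 2. Among 38 proteasome subunits 31 were below 0 with a median of -0.26, and 22 of 39 with -0.02 without saline 2. Among 18 glycolysis enzymes 17 were below 0 with a median of -0.18, and 13 with -0.09 without saline 2. Against the same saline libraries, the AC3174 and combination medians were -0.46 and -0.62 for the respiratory chain. They were -0.36 and -0.68 for ribosomal proteins, -0.27 and -0.32 for the proteasome and -0.35 and -0.25 for glycolysis. Ndufa10, a complex I subunit, was at 466, 746 and 409 CPM with saline and 406, 357 and 338 CPM with AC170222, and Gapdh at 1573, 2361 and 1509 CPM with saline and 1519, 1265 and 1051 CPM with AC170222. Saline 2 was the highest library for both, and none of the members of these 4 lists was called. All 13 mitochondrially encoded mRNAs had log2 differences below 0 with a median of -0.40, and 12 with -0.37 without saline 2. For these mRNAs the median was 0.21 with AC3174 and -0.74 with the combination. Their levels varied widely within each group: they summed to 1275 to 10889.7 CPM in the saline libraries and 1654 to 7693 CPM in the AC170222 libraries. Their median difference of log2(CPM + 2) was -1.18 in the first set of library codes and 1.86 in the second. For the respiratory chain the same medians were -0.53 and -0.13, and for the ribosomal proteins -0.38 and -0.13.

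**Figure D4:**
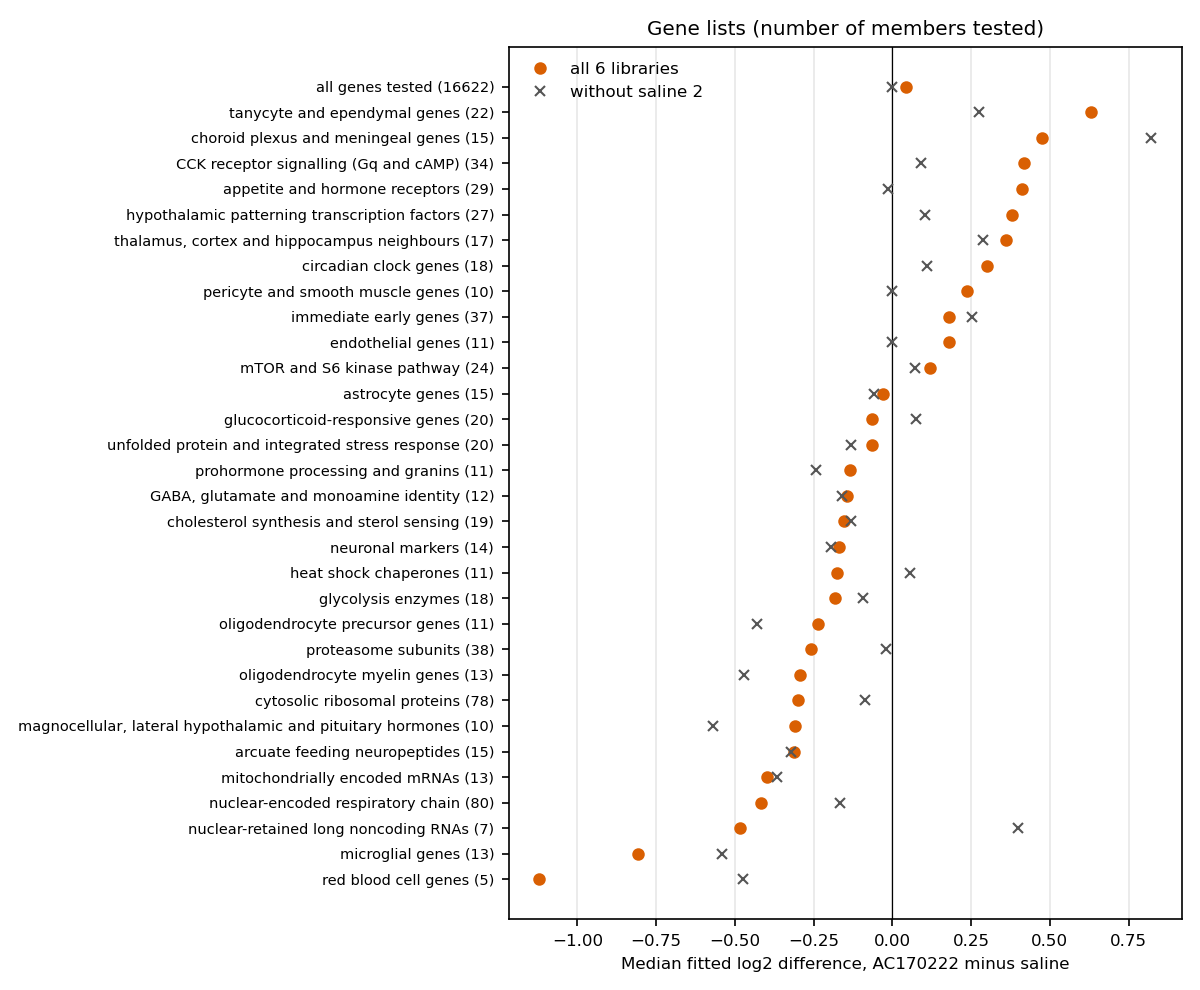
Median fitted log2 difference of each gene list, with all 6 libraries (orange circles) and without saline 2 (grey crosses); the number of tested members stands in brackets. The list of 6 GLP-1 and CCK genes, of which several were at 0, is not drawn. Respiratory chain (-0.42 to -0.17), ribosomal protein (-0.30 to -0.09) and CCK signalling (0.42 to 0.09) medians moved toward 0 without saline 2, and the nuclear-retained RNA median moved from -0.48 to 0.40.

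Neuronal marker genes had small log2 differences, most of them below 0, and none was called. Of 14 neuronal markers, 11 log2 differences were below 0 with a median of -0.17, and 13 with a median of -0.20 without saline 2. Groups did not overlap for 5 of the 14, all with lower AC170222 libraries, against 3.75% of all genes. Elavl4, an RNA-binding protein of neurons, was at 340.2, 349 and 316 CPM with saline and 284, 248 and 243 CPM with AC170222, and Gap43, a growth cone protein, at 1680.4, 2063 and 1599 CPM with saline and 1590.2, 1399.5 and 1505 CPM with AC170222. Stmn2 was at 799, 749.8 and 734 CPM with saline and 669, 681 and 689 CPM with AC170222. The log2 difference of Elavl4 was -0.38 ± 0.14 (unadjusted p 0.0192, edgeR adjusted p 0.709). The summed level of the 14 markers was 11824 to 12105 CPM in saline and 10056 to 10837 CPM in AC170222 libraries. In tissue RNA, fewer cells of a type and less RNA per cell cannot be told apart.

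For Mbp and Mog, other genes of the myelin sheath, the groups overlapped, unlike for Mag. Mbp was at 1341, 609 and 849.7 CPM with saline and 1065, 907 and 647 CPM with AC170222. Mog was at 35.6, 19.7 and 31.7 CPM with saline and 23.7, 17.6 and 18 CPM with AC170222. The overlap of Mog came from saline 2 alone. Of 13 myelin genes, 10 log2 differences were below 0, with a median of -0.29 (-0.47 without saline 2). All AC170222 libraries were lower for 2 of the 13 and higher for 1, against 3.75% and 5.28% of all genes. Besides Mag the lower one was Aspa, which breaks down N-acetylaspartate, at 40.3, 75.6 and 32.4 CPM with saline and 12.9, 29.8 and 12.7 CPM with AC170222. The higher one was Ugt8a, an enzyme of myelin galactolipid synthesis, at 0.726, 0 and 0 CPM with saline and 31.6, 3.85 and 3.07 CPM with AC170222. The summed level of the 13 genes, 1917 to 3520 CPM in saline, overlapped with 1528 to 2540 CPM in AC170222 libraries. Astrocyte genes had a median of -0.03, with 6 above and 9 below 0. Microglial and endothelial genes were sparse. Microglial genes summed to 47.4 to 81.8 CPM with saline and 40.4 to 64.9 CPM with AC170222, and endothelial genes to 37.1 to 66.0 CPM and 56.5 to 60.8 CPM. Kdr, the VEGF receptor of endothelium, was at 0 in all saline libraries and at 12.1, 13.8 and 0.956 CPM with AC170222, while Plvap, of fenestrated vessels, was at 30.5, 65.9 and 11 CPM with saline and 29.7, 21.3 and 15.3 CPM with AC170222. Neurod6, a marker of cortex and hippocampus, had counts only in AC170222 1 (20.6 CPM). The part of cell composition or of dissection in these values was not tested.

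Hypothalamic transcription factors other than Nkx2-1 went in both directions. Of 27 tested, 19 log2 differences were above 0 with a median of 0.38, and 17 with a median of 0.10 without saline 2. Fezf1, of the ventromedial nucleus, was at 68.6, 57.7 and 81.7 CPM with saline and 83.7, 123 and 115 CPM with AC170222, and Six6, a factor of the hypothalamus and eye, was at 32.3, 41.9 and 60.3 CPM with saline and 21.5, 26.6 and 16.5 CPM with AC170222. With Nkx2-1 they were the genes of the list whose groups did not overlap, 2 of 27 higher and 1 lower, against 5.28% and 3.75% of all genes, and Fezf1 and Six6 had log2 differences of 0.63 and -1.06 ± 0.43. Tbx3, a factor of arcuate neurons, was at 17.9, 0 and 44.6 CPM with saline and 32.7, 77.1 and 109 CPM with AC170222, with no reads in saline 2 and overlapping groups. Among prohormone processing genes, Pcsk2, which cuts prohormones, was at 54.3, 83.9 and 58.7 CPM with saline and 20.5, 41.1 and 32.1 CPM with AC170222, and the granin Chgb at 81.8, 79.9 and 94.1 CPM with saline and 52.8, 69.3 and 49 CPM with AC170222. They were the 2 of 11 genes whose groups did not overlap, both lower, against 3.75% of all genes, and their log2 differences were -1.07 ± 0.43 and -0.58 ± 0.27. Pcsk1 and Cpe, of the same route, were at 7.68, 0 and 15.6 CPM with saline and 7.47, 32 and 36.9 CPM with AC170222 and 219, 155 and 265 CPM with saline and 170.0, 403 and 449.9 CPM with AC170222. The 11 genes had a median of -0.14 (-0.24 without saline 2), with 4 above and 7 below 0.

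In DVC input the same comparison of AC170222 with its own saline group called 0 of 17477 genes by edgeR (0%), with 731 (4.18%) at an unadjusted p under 0.05. The difference between regions was tested as an interaction over 24 input libraries: 3 of 18576 genes (0.0161%) were called, and 1324 (7.13%) had an unadjusted p under 0.05. Zfp41 (edgeR adjusted p 0.0249) was at 0 in MBH saline and at 16.8, 13.9 and 1.51 CPM in MBH AC170222 libraries, against 26.1, 6 and 17.8 CPM and 12, 24.6 and 8.59 CPM in DVC. Cgnl1, a junction protein (edgeR adjusted p 0.0419), was at 0 in MBH saline and 2.81, 2.63 and 1.03 CPM in MBH AC170222 libraries, against 27.2, 31.5 and 20.5 and 35.6, 24 and 29.3 CPM in DVC. Fam167a (edgeR adjusted p 0.0419) was at 4.13, 43.3 and 6.34 CPM with saline and 3.98, 6.31 and 7.04 CPM with AC170222 in MBH, and at 0 and 1.2, 0.769 and 2.66 CPM in DVC. Each call rests on a group of 3 libraries at 0, and under the alternatives given below the count ran from 0 to 816.

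How many genes had groups without overlap in DVC was not counted. Fos was called in neither region, and its groups overlapped in MBH only. In DVC it was at 19.6, 23.6 and 14.2 CPM with saline and 48.1, 34.4 and 40.8 CPM with AC170222, groups that did not overlap, and the DVC log2 difference was 1.10 ± 0.30. The interaction, MBH minus DVC, was -1.09 ± 0.50 with an unadjusted p of 0.0431 and an edgeR adjusted p of 0.673, so it was not called. Baz1b was at 40.7, 61.3 and 52 CPM and 39.6, 63.7 and 70.5 CPM in DVC, a log2 difference of 0.17 ± 0.31, and Sema6a at 23.5, 25.2 and 23.5 CPM and 42.9, 41.7 and 16.1 CPM. Both overlapped in DVC, and MBH saline was the group with the low Sema6a values. Mag was far more abundant in DVC, at 214, 177 and 198 CPM with saline and 238, 156 and 126 CPM with AC170222. Kansl1 was at 46.4, 71.4 and 46.7 CPM and 69, 97.9 and 82.5 CPM in DVC, with an interaction of -1.46 ± 0.30, an unadjusted p of 0.000121 and an edgeR adjusted p of 0.25. Of the genes named above with a DVC fit, 7 of 11 higher and 3 of 12 lower genes had the same sign there.

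**Figure D5:**
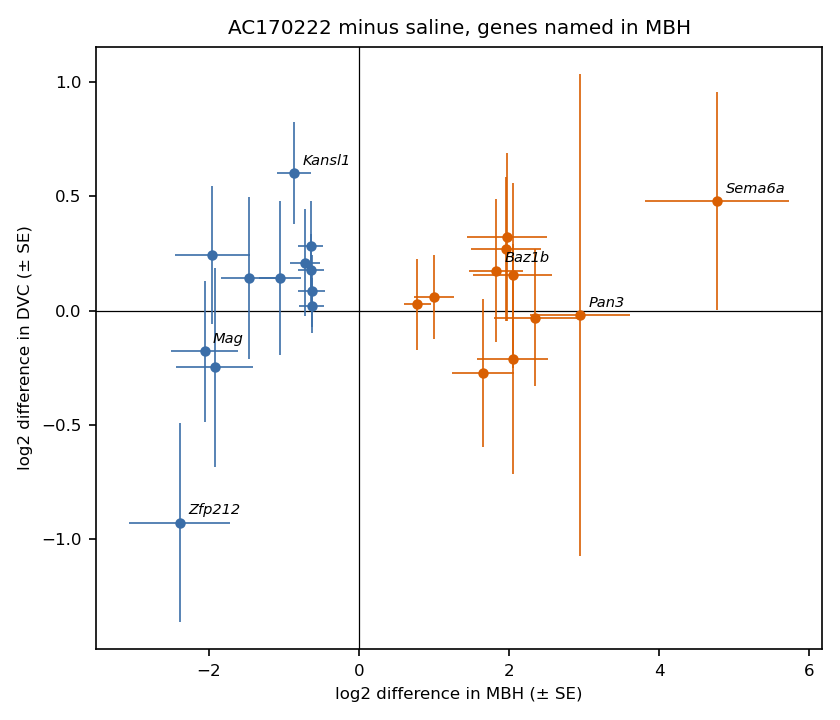
Log2 difference of AC170222 minus saline in MBH (x axis) and DVC (y axis), each with its SE, for the 23 genes of the 24 that were fitted in both regions; orange genes were higher and blue genes lower in MBH. MBH values reach from -2.38 to 4.77, by the choice of the genes, while DVC values lie between -0.93 and 0.60.

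In the IP libraries of the same region, which the test above did not use, Fos was at 62.9, 175 and 76.3 CPM with saline and 85.3, 35.5 and 0 CPM with AC170222, and Sst at 63.1, 31.2 and 33.3 and 25.9, 27.3 and 94.9 CPM. Baz1b was at 211, 127 and 92.6 CPM and 113, 96.4 and 80 CPM there, and Mag at 30.7, 8.98 and 0 and 22.5, 0.341 and 0 CPM. All 4 overlapped between the IP groups, whose libraries were sparser than the inputs, and no test was made on them.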

How the data were processed

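Per the labels' protocols, RNA was purified from clarified homogenate with a column kit, amplified with SMART-Seq v4 and made into Nextera XT libraries, a route without strand information. The processing notes of the submitters name the GRCm38 build, the aligner TopHat2 (2.0.11) and the counter HTSeq (0.6.1p1). The deposited table holds the authors' raw read counts per gene for 38293 Ensembl genes, of which 36345 matched GENCODE M21. Neither their annotation nor their settings are stated. Replicates were not copies of each other (chi-square divided by its degrees of freedom at least 260.7 for any pair).

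The 12 MBH input libraries, 3 for each of 4 treatments, were fitted together with edgeR 4.0.16 in R 4.3.3 (TMM, filterByExpr, 2-sided quasi-likelihood F test, Benjamini-Hochberg over all tested genes, calls at an adjusted p under 0.05), and the 24 inputs of both regions for the interaction. DESeq2 1.42.0 and limma-voom 3.58.1 were alternatives, with other filters and scalings, a covariate for the library set, a replicate block, and each replicate left out. CPM used TMM-scaled library sizes. A group at 0 was given a floor of 3 counts.

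The members and the 32 gene lists were chosen with earlier results of these data known. Named by rule were 12 genes per direction with the smallest p among those of at least 10 CPM whose groups did not overlap. So were the 4 most abundant genes, in each direction, with counts in only 1 of the AC170222 and saline groups. Also taken were the CCK and GLP-1 genes, Fos, Agrp, Npy, Pomc and Cartpt. The last were the 1 or 2 list members with the smallest p and the leading region interactions. Other list members were named after their values were seen. Some genes these rules name are not reported here. Exact permutation tests of total counts, genes found, mitochondrial share and genes at 0 between the groups gave p of 0.5 to 0.8 (smallest possible 0.1), and those of the TMM factor and of the share of the 100 most abundant genes gave 0.2 and 0.1. With no molecular identifiers, depth limits only the counting error.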

Additional observations from a re-analysis of the deposited data

Results flagged for a closer look

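The difference between AC170222 and saline was called different between MBH and DVC input for 3 genes by the edgeR interaction test (values are MBH minus DVC on the log2 scale). Zfp41 had 12.5 (adjusted p 0.0249) and Cgnl1 had 9.91 (adjusted p 0.0419); both had 0 counts in the 3 MBH saline libraries and counts in the 3 MBH AC170222 libraries and in all DVC libraries. Fam167a had -11.2 (adjusted p 0.0419), with 0 counts in the 3 DVC saline libraries and counts in all others. Fitted differences against a group at 0 depend on the prior count and are no bounds.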

How the results depend on the processing

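The count of 0 genes called in MBH input was the same with no low-count filter, at 10 CPM or more, with DESeq2 size factors in edgeR, with library totals, with the library set as covariate and with AC170222 and saline libraries alone. It was 573 with DESeq2 and 2 with limma-voom. Leaving out a replicate gave 0 to 6 calls, the 6 without saline 3 (Sptlc1, Arhgef26, Slc25a24, Zfp14, Pard6g and Rtl9, each at or near 0 in saline 1 and saline 2). The 3 region calls became 816 with DESeq2, 0 with AC170222 and saline libraries alone, and 0 to 62 with a replicate left out: 62 without MBH saline 3, 24 without MBH saline 1, 1 without MBH saline 2 or DVC saline 2, and 0 without MBH AC170222 2, DVC saline 1, DVC saline 3 or any DVC AC170222 library. Replicate numbers did not pair the libraries: deviations of same-numbered libraries of both groups correlated at -0.078 to 0.082, with 0 of 3 pairs over 0.1, and 1 of 12 libraries correlated best with its own number. The replicate block gave 0 calls in MBH (442 higher and 325 lower at an unadjusted p under 0.05) and 1 region call. Leaving out single libraries turned the sign of small log2 differences, which ranged from -0.19 to 0.56 for Cck and from -0.13 to 0.32 for Fos (below 0 without saline 1, saline 3, AC170222 2 or AC170222 3), from -0.42 to 0.60 for Agrp (below 0 without AC170222 3), from -0.10 to 0.32 for Npy (below 0 without saline 1, saline 3 or AC170222 3) and from -0.12 to 0.33 for Pomc (below 0 without saline 1, AC170222 2 or AC170222 3). Without saline 2 the value was above 0 for Miat (range -2.10 to 0.40), Snhg11 (-1.06 to 0.35) and Fam167a (-2.10 to 0.14). DESeq2 put 44 of the 104 named genes with a fit past its threshold. Causes were not tested. Genes under about 10 CPM, the CCK and GLP-1 receptors among them, often had libraries at 0, and differences there are poorly resolved.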
